A study of Mus musculus with 6 samples.

Results

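Carbonic anhydrases are zinc enzymes that turn carbon dioxide and water into bicarbonate and a proton, and back. They differ mainly in where they work: in the cytosol, in mitochondria, in secreted fluids or on the cell surface with the catalytic domain facing outward. Surface forms set the pH around the cell together with bicarbonate, proton and lactate carriers, and Car9 is a textbook target of the hypoxia-inducible factor (HIF), the transcription factor that accumulates at low oxygen.

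The mRNA of 10 mouse carbonic anhydrase genes was followed in mouse embryonic fibroblasts (MEFs), wild-type adherent connective tissue cells, before and after passage through narrow pores. The 10 genes, Car2, Car3, Car4, Car5b, Car6, Car8, Car9, Car12, Car13 and Car14, were chosen by symbol, and all 10 were found among the 55335 genes of the deposited count table. Ctrl libraries came from parental MEFs. Confine libraries came from MEFs of the same kind that were seeded on the upper side of a transwell with 3 μm pores and had crossed it by 15 h. The table has 3 columns for each group, but Confine replicates 1 and 2 do not differ in any of the 55335 genes. They entered as 1 library, which leaves 3 Ctrl and 2 Confine libraries. The labels do not say whether replicates came from separate cultures, so p-values measure the spread between these libraries only, and it may be technical. In the edgeR fit described below, the spread of each gene was estimated in part from the other tested genes. The design compares cells that crossed with parental cells, so passage through the pores, culture on the membrane and a selection of the cells that cross cannot be told apart.

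The libraries held from 22287210 to 32537550 counts. Counts were scaled to normalized CPM, the counts of a gene relative to a TMM-scaled library size, and 3 counts equal 0.101 to 0.128 normalized CPM depending on the library. Floors and counting intervals take in counting error alone, because PCR copies could not be told from separate molecules. Of the 9 fibroblast markers examined, 7 were expressed well enough to be tested. The summed level of all 9 was 8728 to 9586 normalized CPM in Ctrl and 15717 to 16495 in Confine. By the rule for calls given below, Col3a1 was called higher in Confine and the other tested fibroblast markers were not called. The remaining fibroblast markers, Thy1 and Dcn, were near absent: Thy1 had at most 2 counts in a library, and Dcn had at most 2 counts in Ctrl and 27 and 3 in Confine. In such bulk RNA, fewer cells of a type and less RNA per cell cannot be told apart.

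Genes were tested with edgeR's quasi-likelihood test on 15881 genes that passed its filter on low counts, with Benjamini-Hochberg adjustment over all of them. Calls needed both an adjusted p below 0.05 and a log2 fold change beyond 1.5 in size. By this rule 8.00% of all tested genes were called, 4.89% higher and 3.11% lower in Confine. Of the 10 carbonic anhydrases, 5 passed the filter (Car5b, Car6, Car9, Car12 and Car13). Car9, Car12 and Car6 were called higher in Confine, and 0 were called lower. Car12 and Car6 passed the filter through their Confine libraries alone, so a difference between groups was built into their selection, and neither their count nor a median over the tested genes is given as support. Car2, Car3, Car4, Car8 and Car14 had too few counts to be tested, with Car3 and Car4 at 0 counts in all 5 libraries.

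**Figure D1:**
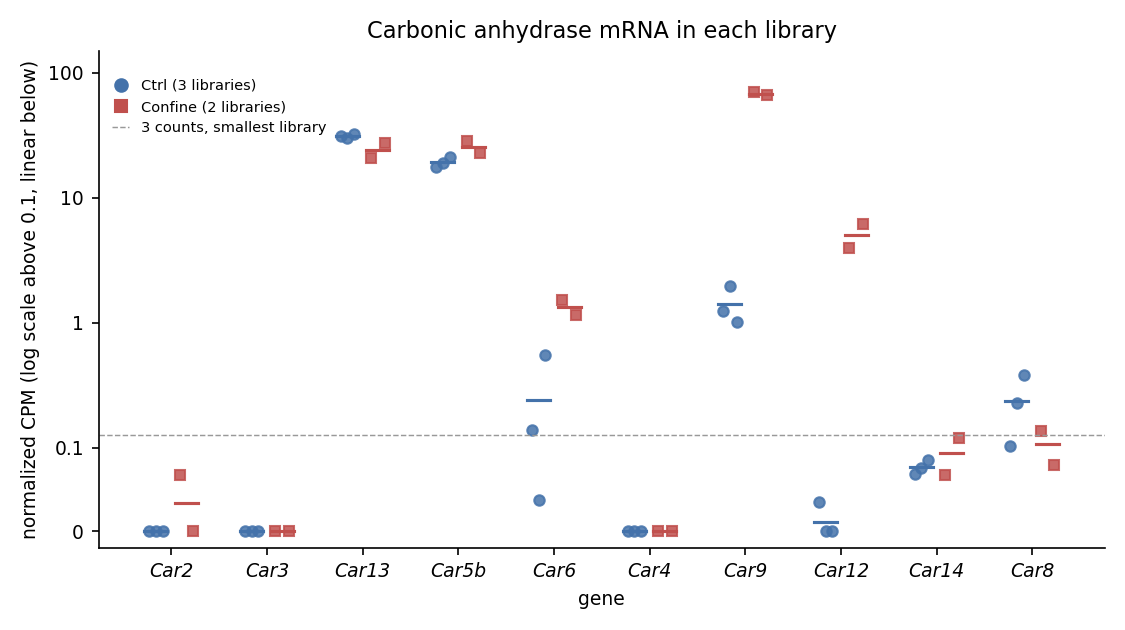
Normalized CPM of the 10 carbonic anhydrases in each library, on an axis that is logarithmic above 0.1 and linear below; circles are the 3 Ctrl libraries, squares the 2 Confine libraries, short lines the group means and the dashed line 3 counts in the smallest library. Car9 moved from 1.02 to 1.97 in Ctrl up to 65.8 to 70.5 in Confine, Car12 was nearly absent in Ctrl, and Car13 and Car5b stayed between 17.6 and 32.2 in all libraries.

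Promoter sequences were looked at because Car9 and Car12 were both called higher in Confine. RefSeq windows from 250 bases before to 50 after the annotated start (GRCm38.p6) were available for 6 of the 10 genes: Car4, Car5b, Car6, Car9, Car12 and Car14. They were searched on both strands for ACGTG and GCGTG, the core letters to which HIF is known to bind. ACGTG occurs in 19.6% of the 32851 promoter windows of the same length, GCGTG in 32.4%, and either of them in 43.8%, so a match alone is common. A palindrome CACGTG holds ACGTG on both strands, and such overlapping matches were counted separately.

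The 30-base stretches below are shown because they hold the match of Car9, the palindrome of Car6 and, as a comparison, 1 of the 5 matches of the expressed but not called Car5b. Capitals mark the match, and CACGT is ACGTG read on the opposite strand.
Car9, chr4:43506996-43507025, plus strand: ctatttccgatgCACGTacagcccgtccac
Car6, chr4:150201266-150201295, minus strand: aggaggtgaggcACGTGcacaggcaccaag
Car5b, chrX:164028054-164028083, minus strand: gaagagctggggGCGTGgcttctgggaggc
The Car9 window held 1 ACGTG, whose first base lies 18 bases before the RefSeq start and inside the first part of the longer GENCODE gene. The Car6 window held the palindrome, counted as 2 overlapping ACGTG, and 1 GCGTG. The palindrome lies before the RefSeq start of Car6, but inside the longer GENCODE gene, which begins at 150201332. Only 53 bases of the Car6 window are upstream of that gene. The Car5b window held 0 ACGTG and 5 GCGTG. Car4 and Car14 held 1 ACGTG each.

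The stretch upstream of Car12 is shown because its window held neither core, although Car12 was called higher.
Car12, chr9:66713436-66713685, plus strand: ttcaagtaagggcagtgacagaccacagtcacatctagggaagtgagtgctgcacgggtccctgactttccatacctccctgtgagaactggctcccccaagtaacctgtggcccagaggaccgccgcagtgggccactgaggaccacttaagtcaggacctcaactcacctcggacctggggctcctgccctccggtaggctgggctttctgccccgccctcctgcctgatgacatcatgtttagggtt
A match is a description of letters and not a bound site, and a window without one says only that these letters are not in it.

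Car9, a transmembrane enzyme with its catalytic domain outside the cell, rose most in level among the 10. It lies on the plus strand of chromosome 4 from 43506966 to 43513729 (GENCODE M21, GRCm38), with 7 annotated transcripts. Ctrl libraries held 36, 52 and 24 of its reads, and Confine libraries 2087 and 1658. This corresponds to 1.24, 1.97 and 1.02 normalized CPM in Ctrl and to 70.5 and 65.8 in Confine. The groups did not overlap, with Confine above as in 25.9% of all tested genes, and the 2 Confine libraries lay close to each other. The mean was 1.41 ± 0.494 normalized CPM (SD, n = 3) in Ctrl and 68.2 ± 3.31 (SD, n = 2) in Confine. The fitted difference was 5.59 on the log2 scale (95% interval 5.07 to 6.10, standard error 0.25, edgeR adjusted p = 2.49e-11), a 48.0-fold higher level. By size it ranked 45 among the 15881 tested genes, counted from the largest increase.

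Car9 shares 163 bases of exon with Gm12454, an antisense gene on the minus strand from 43504428 to 43508747. Gm12454 had 15, 14 and 4 counts in Ctrl and 33 and 48 in Confine, and it was called higher with a log2 fold change of 1.86 (edgeR adjusted p = 0.0151). The library preparation keeps the strand, but the sources used here do not say whether the counting used it, so a part of the Gm12454 reads may belong to Car9. Its counts were far below those of Car9 in both Confine libraries. In Ctrl they were closer to those of Car9, which had 36, 52 and 24. Tpm2, an abundant tropomyosin gene on the minus strand whose 3′ end lies 982 bases beyond that of Car9, had a log2 fold change of 0.03 (edgeR adjusted p = 0.937).

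Car12, the other transmembrane member that was tested, was near absent in Ctrl and detected in both Confine libraries. It lies on the plus strand of chromosome 9 from 66713686 to 66766845, and no annotated gene overlaps it. It had 1, 0 and 0 counts in Ctrl and 117 and 154 counts in Confine, or 0.0345, 0 and 0 against 3.95 and 6.11 normalized CPM. The Ctrl libraries were below the floor of 3 counts and both Confine libraries were far above it. With a single count in Ctrl, the ratio of the pooled counts after scaling was 390.4, with an exact 95% interval from 69.5 to 15475 that covers counting error only. The fitted difference was 8.18 on the log2 scale (95% interval 6.84 to 9.52, standard error 0.64, edgeR adjusted p = 3.71e-08). This fitted value depends on the small count that edgeR adds before taking logs. Without Ctrl replicate 1, which holds the single Ctrl count, it was 10.04. Car12 passed the filter through its Confine libraries alone, so its interval and p describe these libraries and are not given as support.

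Car14, the third transmembrane member, had 2 counts in each Ctrl library and 2 and 3 in Confine. It was not tested, and no difference was detectable at this depth. An exon of Car14 overlaps Aph1a, a subunit gene of gamma-secretase on the opposite strand with a mean of 1808 counts per library, so even these few reads cannot be assigned to Car14 with certainty.

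Car4, which is held on the outer membrane by a lipid anchor, had 0 counts in all 5 libraries. A count of 0 allows up to 0.128 normalized CPM in the smallest library.

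Car6, the secreted enzyme of saliva and milk, was also called higher, at a low level. It is a minus-strand gene (chr4:150187015-150201332). It had 4, 1 and 13 counts in Ctrl and 45 and 29 in Confine, or 0.138, 0.0378 and 0.553 against 1.52 and 1.15 normalized CPM. The groups did not overlap, with Confine above as in 25.9% of all tested genes. For Car6 a difference was also built into its passing the filter. The Ctrl libraries lay further apart than the Confine libraries did. The fitted difference was 2.49 on the log2 scale (95% interval 1.10 to 3.89, standard error 0.66, edgeR adjusted p = 0.010), a 5.63-fold higher level. The call was lost without the library deposited as Confine replicates 1 and 2 (log2 fold change 2.27, edgeR adjusted p = 0.121) and kept without Confine replicate 3 (2.67, edgeR adjusted p = 0.0458). It was also lost when the cutoff was made part of the test (glmTreat). The size moved with the few Ctrl reads, with a log2 fold change of 3.81 without Ctrl replicate 3 and 1.99 without Ctrl replicate 2.

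The nearest gene with a mean of at least 50 counts is Eno1, the glycolytic enzyme enolase, 35389 bases from Car6 on the opposite strand. Eno1 had 43096 to 65009 counts in Ctrl and 166300 and 209035 in Confine, with a log2 fold change of 1.78 (edgeR adjusted p = 1.275e-06). Eno1 runs from 150236721 to 150248879, so its transcription leads away from Car6. Whether transcription of this very abundant neighbour has any other part in the few Car6 reads was not tested.

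**Figure D2:**
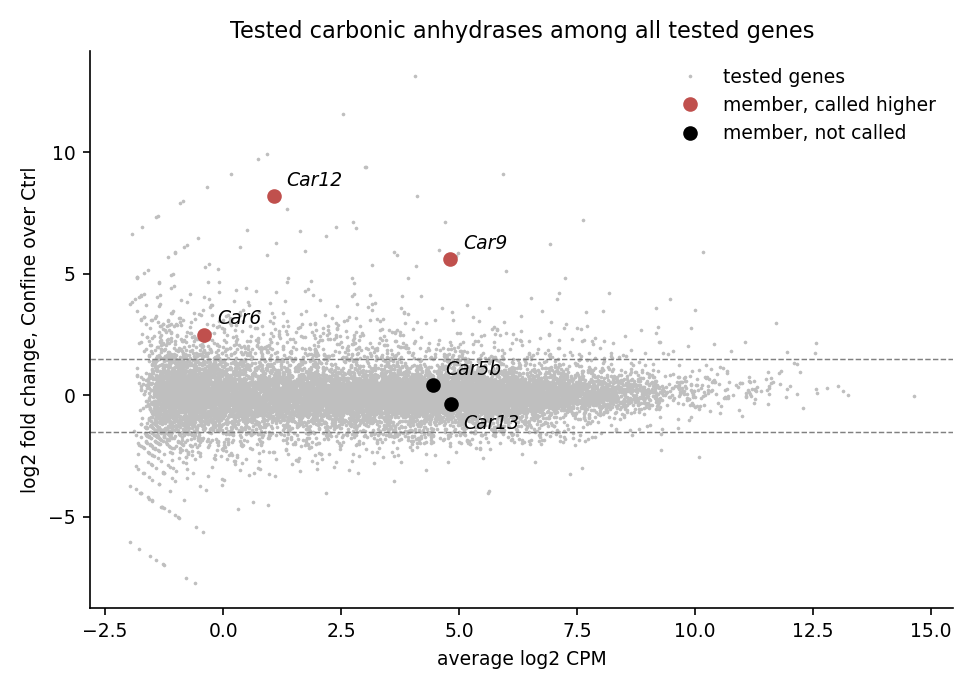
Log2 fold change of Confine over Ctrl against average log2 CPM for the 15881 tested genes (grey), with the 5 tested carbonic anhydrases marked; dashed lines are the cutoffs at 1.5 in either direction. Car12 (8.18) and Car9 (5.59) lie at the upper edge of the cloud, Car6 (2.49) is called at a low level, and Car5b (0.41) and Car13 (-0.37) lie inside it.

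Car13, a cytosolic enzyme, had the highest level per length of the 10 genes in the parental MEFs. It lies on the plus strand of chromosome 3 from 14641727 to 14663002. It had 31.1, 30.3 and 32.2 normalized CPM in Ctrl and 20.7 and 27.7 in Confine. Both Confine libraries were below all Ctrl libraries, but they differed from each other by more than the Ctrl libraries did. Of all tested genes, 23.6% had both Confine libraries below all Ctrl libraries, so this separation is common. The fitted difference was -0.37 on the log2 scale (95% interval -0.77 to 0.04, standard error 0.19, edgeR adjusted p = 0.187), and Car13 was not called.

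Car2 and Car3, cytosolic enzymes whose genes lie on the same chromosome 3 stretch as Car13, were near absent. Car2, the fast enzyme of red cells and osteoclasts, had 2 counts in a single Confine library and 0 in the other 4 libraries. Car3, an enzyme of muscle and fat, had 0 counts throughout. Markers of the cells that carry these enzymes differed, with some at 0 counts in all libraries and a few clearly expressed. Erythroid markers summed to 1.24 to 2.23 normalized CPM in Ctrl and 0.676 to 1.55 in Confine, almost all from Alas2. Of these 6 markers, 3 were at 0 (Hba-a2, Hbb-bs and Hbb-bt). Skeletal muscle markers summed to 4.76 to 6.36 in Ctrl and 13.4 to 15.4 in Confine, almost all from Des and Acta1, with Myod1 at 0. Adipocyte markers summed to 5.63 to 8.39 and 6.49 to 8.62, almost all from Fabp4, with Cidec at 0. Osteoclast markers summed to 9.19 to 11.2 and 15.4 to 17.0, almost all from Ctsk, with Calcr and Dcstamp at 0. Of the other osteoclast markers, Acp5 had 0 counts in Ctrl and 6 and 11 in Confine, and Ocstamp had 2 in Confine replicate 3 alone.

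Car5b, the mitochondrial member, was expressed in all libraries. It is a minus-strand gene (chrX:163976822-164027997). It had 17.6, 19.1 and 21.1 normalized CPM in Ctrl and 28.2 and 22.9 in Confine. Confine lay above Ctrl without overlap, as in 25.9% of all tested genes. The fitted difference was 0.41 on the log2 scale (95% interval 0.01 to 0.81, standard error 0.19, edgeR adjusted p = 0.140), and Car5b was not called. Its transcripts share stretches of at least 100 bases, at 95% identity or better, with 87 other genes, so some of its reads may have been placed elsewhere or have come from elsewhere.

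Car8 keeps the carbonic anhydrase fold without the enzyme activity, and is known as a partner of an inositol trisphosphate receptor in Purkinje cells. It had 3, 6 and 9 counts in Ctrl and 4 and 2 in Confine. The groups overlapped, the gene was not tested, and a difference was not detectable at these counts.

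For the 5 tested members an exact permutation test of mean log2(CPM + 1), two-sided, gave p = 0.1 each, with an adjusted p of 0.1 over the 5 tests. This is the smallest p that 3 against 2 libraries allow, so this test cannot tell the large changes of Car9 and Car12 from the small ones of Car5b and Car13. The interval of Car9 lies above 5 on the log2 scale and those of Car5b and Car13 below 1. The interval of Car12 also lies above 5. It is not given as support, since Car12 passed the filter through its Confine libraries alone.

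Levels were compared between genes after division by exon length, as normalized CPM per kb of exon. Among the 10 genes, the order in Ctrl was Car13 with 13.6 ± 0.414 (SD, n = 3), Car5b with 3.03 ± 0.271, Car9 with 0.612 ± 0.214 and Car6 with 0.134 ± 0.150 normalized CPM per kb. These ranges were separate down to Car9 and Car6, while those of Car6, Car8 and Car14 overlapped with their neighbours. In Confine the order was Car9 with 29.6 ± 1.44 (SD, n = 2), Car13 with 10.5 ± 2.13, Car5b with 4.02 ± 0.598, Car6 with 0.736 ± 0.144 and Car12 with 0.663 ± 0.201 normalized CPM per kb. Car6 and Car12 overlapped, and the other neighbours among these 5 did not. Among these 10 genes, Car9 thus went from the third to the first place; the further family genes named below were not ranked.

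The summed level of the 10 members was 17.0, 17.2 and 18.2 normalized CPM per kb in Ctrl and 45.5 and 45.7 in Confine. Without Car9 the sum was 16.4, 16.3 and 17.8 in Ctrl and 14.9 and 17.1 in Confine, and the groups overlapped. The difference in the sum of the 10 was therefore carried by Car9. Car9 took 3.18%, 4.97% and 2.43% of the sum in Ctrl and 67.2% and 62.5% in Confine. The share of Car13 went from between 76.9% and 79.7% in Ctrl to 19.8% and 26.3% in Confine.

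**Figure D3:**
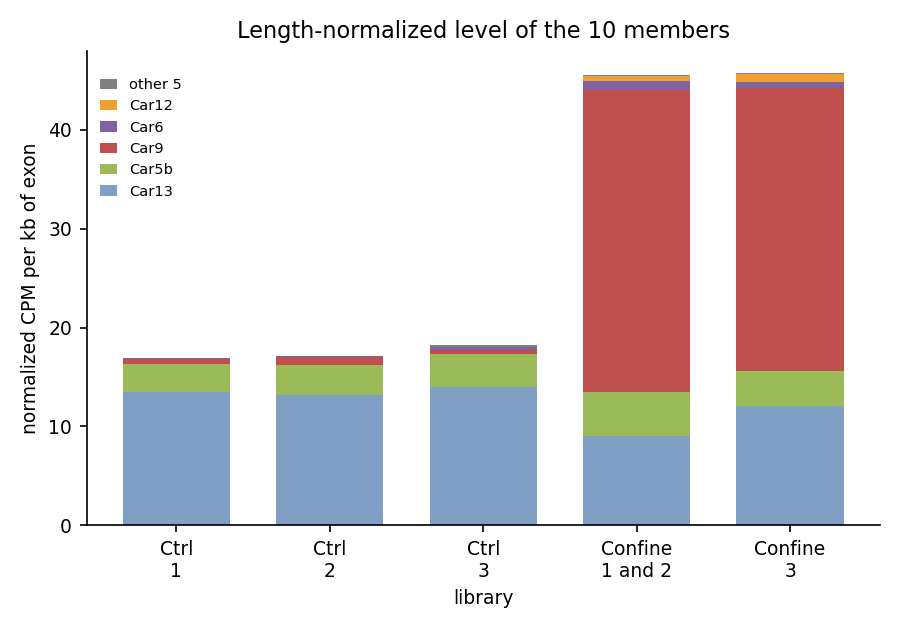
Stacked normalized CPM per kb of exon of the carbonic anhydrases in each library, with Car2, Car3, Car4, Car8 and Car14 drawn together as the other 5; the bar labelled 1 and 2 is the Confine library deposited under both numbers. The sum was 17.0 to 18.2 in Ctrl and 45.5 to 45.7 in Confine, and the Car9 block makes the difference.

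The other genes of the family gave no calls. Of 8 further genes (Car1, Car5a, Car7, Car10, Car11 and Car15, and the receptor phosphatases Ptprg and Ptprz1, which carry a carbonic anhydrase-like domain), 3 were tested. Car11, a secreted relative without enzyme activity, had a log2 fold change of 0.44 (edgeR adjusted p = 0.251). Car7, a cytosolic enzyme best known from neurons, had 0.62 (edgeR adjusted p = 0.433) and Ptprg 0.27 (edgeR adjusted p = 0.371). Among the untested ones, Car10, another relative without activity, had 5, 13 and 5 counts in Ctrl and 0 and 1 in Confine. Car15, a lipid-anchored enzyme, had 5, 9 and 4 counts in Ctrl and 0 in both Confine libraries. For Car10 and Car15 both Confine libraries lay below all Ctrl libraries, as in 23.6% of all tested genes. At these few counts no difference was tested.

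Carriers and channels that move bicarbonate, protons or lactate beside the carbonic anhydrases were read from a list of 23 genes, of which 16 were tested. Called higher in Confine were 2 of them, against 4.89% of all tested genes, and 0 were called lower, against 3.11%. The median log2 fold change of the 16 was 0.04, against -0.0021 over all tested genes. Without the cutoff on the fold change, 3 of the 16 had an edgeR adjusted p under 0.05, against 23.0% of all tested genes.

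Bsg encodes basigin, the membrane partner that brings lactate carriers to the cell surface. It had 1032, 747.3 and 902.7 normalized CPM in Ctrl and 7040 and 7087 in Confine. The groups were far apart and both Confine libraries were nearly equal. The fitted difference was 2.98 on the log2 scale (standard error 0.19, edgeR adjusted p = 2.05e-09), a 7.90-fold higher level.

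Slc4a4, a sodium bicarbonate cotransporter, had 1.04, 1.29 and 0.638 normalized CPM in Ctrl and 3.45 and 6.55 in Confine. Slc4a4 lay higher in Confine without overlap, as in 25.9% of all tested genes, but the Confine libraries differed from each other. It rose by a log2 fold change of 2.32 (edgeR adjusted p = 1.37e-04, standard error 0.37), and it missed the call when the cutoff was made part of the test (glmTreat, adjusted p = 0.168).

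Slc16a1, a lactate carrier, passed the adjusted p but not the cutoff on the fold change, with a log2 fold change of 0.91 (standard error 0.22, edgeR adjusted p = 0.00595). The 14 list members that were not called had log2 fold changes from -1.27 for Slc9a9 to 0.91 for Slc16a1. Slc9a9, a sodium proton exchanger of endosomes, had 17 to 40 counts in Ctrl and 12 and 14 in Confine (edgeR adjusted p = 0.111), and was called lower only without Ctrl replicate 1, with a log2 fold change of -1.60 (edgeR adjusted p = 0.0483).

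**Figure D4:**
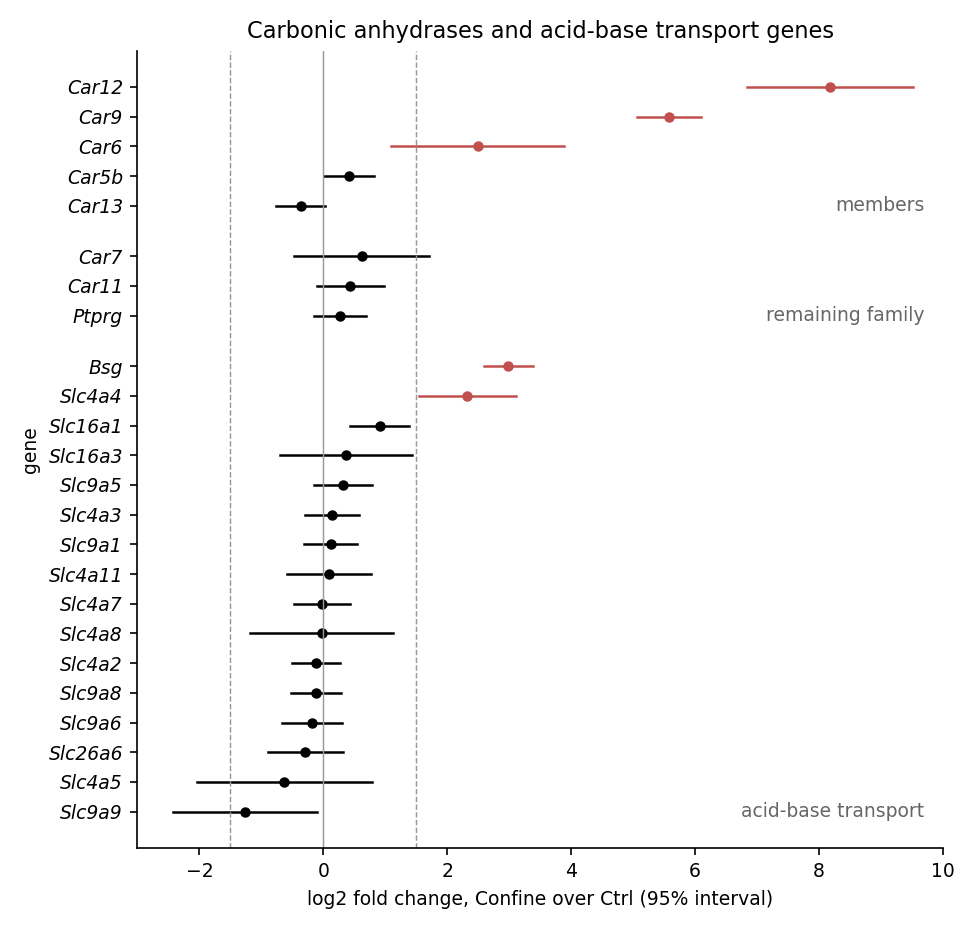
Log2 fold change of Confine over Ctrl with its 95% interval for the tested carbonic anhydrases, the tested further genes of the family and the tested acid-base transport genes; red marks called genes and dashed lines the cutoffs at 1.5 in either direction. The estimates of Car12, Car9 and Car6 and, of the carriers, Bsg and Slc4a4 lie above the cutoff, but the interval of Car6 reaches below it. The intervals of the genes not called include 0 except those of Car5b, Slc16a1 and Slc9a9.

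Since Car9 is a known HIF target, its change was set beside 13 genes often used as reporters of HIF. Of these, 12 were tested, and 9 were called higher (4.89% of all tested genes) and 0 lower. All 12 had an edgeR adjusted p under 0.05, against 23.0% of all tested genes. Their median log2 fold change was 2.93, from 1.40 to 5.11, so the 5.59 of Car9 lay above the range of these reporters. That HIF target genes rose in these libraries was known when the list was chosen, so it is not independent support.

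Markers of other cell types were read in the same libraries. Leukocyte markers summed to 6.89 to 7.71 normalized CPM in Ctrl and 17.2 to 24.1 in Confine. Cd68 was called higher and Lyz2 lower, while the defining markers Ptprc, Adgre1 and Itgam had at most 2 counts in any library. Epithelial markers summed to 0.128 to 0.207 in Ctrl and 0.0338 to 0.675 in Confine, with Epcam and Krt18 at 0. Endothelial markers summed to 0.207 to 0.718 in Ctrl and 0 to 0.159 in Confine. The part of the muscle, osteoclast and leukocyte markers that moved with the groups in the carbonic anhydrase results was not tested.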

How the data were processed

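The authors purified polyadenylated RNA, made dUTP libraries that keep the strand, and deposited raw read counts per gene for 6 columns, without normalization. The submitters' processing notes name Trim Galore 0.6.10, HISAT2 2.1.0, SAMtools 1.5, featureCounts and the build mm10. The annotation and the strand setting are not given in the sources used here.

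Identical columns were counted once. Of 55335 gene identifiers, 55154 matched GENCODE M21 (GRCm38) without their version, which gave symbols, positions and exon lengths. Genes kept by filterByExpr (15881) were normalized by TMM and tested with edgeR 4.0.16 in R 4.3.3 (group as the only term, 3 residual degrees of freedom). Each gene's spread was moderated across genes, with a median of 14.8 prior degrees of freedom. Intervals and p-values of the fit thus do not rest on that gene's counts alone. Standard errors are the log2 fold change over the root of the F statistic. The fit was tested on simulated data. Alternatives were DESeq2 1.42.0, limma-voom (limma 3.58.1), other scalings, filters and call rules, a replicate block, and fits without each library in turn. Shared sequence was searched with blastn 2.17.0. Promoter windows are from RefSeq.

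The members and gene lists were chosen with earlier results of these data known. Named by rule were all 10 members, the called genes of the carrier list and those further family genes with at least 10 counts in a library. Slc16a1, Slc9a9, Car15, Gm12454, Aph1a, Eno1 and Tpm2 were named after their values were seen. A ranking of genes by likeness to Car9 is not reported, since 5 libraries in 2 groups are too few for it.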

Additional observations from a re-analysis of the deposited data

How the results depend on the processing

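Car9 kept its direction and its call in every alternative, with log2 fold changes from 5.37 to 5.90. Car12 ranged from 7.47 to 10.05 in the alternatives that tested it. Its calls there are not given as support, since Car12 passed the filter through its Confine libraries alone. Car6 ranged from 1.99 to 3.81 and lost its call without the Confine library deposited as replicates 1 and 2. With at least 10 counts in every library, 1 carbonic anhydrase was called (Car9), since that filter removes Car6 and Car12. When the test itself included the cutoff (glmTreat), 2 carbonic anhydrases and 1 acid-base transport gene (Bsg) were called, and Car6 and Slc4a4 were not. With library size alone the median log2 fold change of all tested genes was -0.21, and Car13 then had -0.57 (edgeR adjusted p = 0.0359) and Car5b 0.20. With the identical columns counted as 2 samples, the adjusted p was 0.0372 for Car13 and 0.0307 for Car5b. Neither reached the fold change cutoff in any alternative.

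With the replicate block, 3 carbonic anhydrases and 2 acid-base transport genes were called, whether the repeated library was taken as number 2 or as number 1, so the block changed no call. The correlation of same-numbered differences was -0.091 and 0.077 across genes, over 2 pairs, so the samples may share only a number. With the longest transcript as gene length, the share of Car5b in the Ctrl sum was 27.8% in place of 17.4%, and that of Car13 67.4% in place of 77.8%. Without a filter on low counts, Car2, Car8 and Car14 had edgeR adjusted p-values from 0.558 to 0.939. Where 1 Confine library was left, it was assumed to vary like the Ctrl libraries.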
